A study of Mus musculus with 23 samples.

Results

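A set of 10 genes that mark or serve type 1 conventional dendritic cells (cDC1s) was followed through 23 MC38 tumors. They are Xcr1, Clec9a, Batf3, Irf8, Itgae, Flt3, Wdfy4, Tlr3, Cadm1 and Xcl1. They were chosen by name and not by a threshold on measured values, but with earlier results of these data known. All 10 had a row among the 26869 genes measured. MC38, a colon carcinoma line derived from C57BL/6 mice, was injected under the skin of female mice 8 to 12 weeks old. The hosts were F1 offspring of C57BL/6J and 1 of 6 Collaborative Cross strains (CC001/UncJ, CC002/UncJ, CC075/UncJ, CC036/UncJ, CC079/TauUncJ and CC080/TauUncJ), so each of the 6 host lines, written CC001F1 and so on, carries its own mix of founder alleles opposite a shared C57BL/6J set. Tumors of 75 to 110 mm3 received 1 dose of 200 µg of either an isotype antibody (2A3) or aPD1, an antibody (29F.1A12) that binds PD-1, and RNA of the whole tumor was sequenced 48 h later. There were 2 tumors in each of the 12 groups of line and antibody, except for CC080F1 with aPD1, which had 1. The text of the study names CC001F1, CC002F1 and CC075F1 as responder (R) lines and CC036F1, CC079F1 and CC080F1 as non-responder (NR) lines. Each class was thus 3 F1 crosses, the class was a property of the line and not of the tumor sequenced, and the labels do not give it.

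cDC1s are the dendritic cells that take up material from dying cells and present it to CD8+ T cells, which is called cross-presentation. Their development depends on the cytokine receptor Flt3 and on the transcription factors Irf8 and Batf3, and mature cDC1s are told apart by the chemokine receptor Xcr1 and the lectin Clec9a. Xcl1, the ligand of Xcr1, is made by natural killer (NK) cells and activated CD8+ T cells, so it is the one gene here that other cells make for cDC1s to read. Several of the genes have other sources in a tumor: Irf8 is also transcribed in macrophages, B cells and plasmacytoid dendritic cells, Itgae in resident T cells, and Tlr3 and Cadm1 in cells outside the immune system. In bulk tumors a higher transcript level cannot be told apart from a larger number of cells that carry the transcript.

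Library totals ran from 14494014 to 71868253 counts, with 6 libraries (2 R and 4 NR) of 18354585 or fewer and 17 of 37242363 or more, so depth and class were partly mixed. Glycam1, a transcript of lymph node vessels, was at 0 in 20 tumors and had 309 to 387 counts in 3, namely isotype replicate 1 of CC002F1, aPD1 replicate 1 of CC079F1 and aPD1 replicate 1 of CC080F1. These 3 also held more B cell transcripts, with summed B cell marker levels reaching 972 in the R isotype group and 3142 in the NR aPD1 group. The levels below are normalized counts, that is counts divided by the DESeq2 size factor of the library. Fold changes are on the log2 scale with their standard error (SE), and a call is a Benjamini-Hochberg adjusted p under 0.05 over all genes of the DESeq2 fit. Nothing in the labels says how tumors of a group were housed or processed, so each p measures the spread between these tumors.

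Every gene of the set was detected in every tumor, but at levels far apart. Per kilobase of exon, the mean level over the 23 tumors was 321 normalized counts for Tlr3, 263 for Irf8, 163 for both Wdfy4 and Clec9a, 147 for Xcl1 and 116 for Cadm1. Batf3 was at 25.2, Xcr1 at 15.9, Itgae at 14.7 and Flt3 at 6.70 on the same scale. Thus Clec9a and Xcr1, both surface receptors of cDC1s, stood about an order of magnitude apart, and Batf3, Itgae and Flt3 lay low as Xcr1 did. Which cells carried each transcript was not measured in these bulk libraries, so neither receptor's level is read as a number of cDC1s. The study also profiled single cells of tumors from these lines, sorted mostly for leukocytes. It lists no significant difference between the classes in the share of Xcr1+ Clec9a+ dendritic cells. Xcr1 rested on 4 to 560 counts per tumor and Batf3 on 2 to 114, so the lowest libraries give these genes little precision.

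Irf8 encodes the interferon regulatory factor that commits dendritic cell progenitors to the cDC1 fate (chromosome 8, 120736358 to 120756694 on GRCm38, plus strand). It was at 1896 and 2131 normalized counts in the isotype tumors and 1706 and 3166 in the aPD1 tumors of CC001F1. It was at 1654 and 1483 without and 2569 and 2349 with aPD1 in CC002F1, and at 1541 and 1762 without and 4396 and 3047 with aPD1 in CC075F1. Among NR lines, CC036F1 had 1045 and 1032 in isotype and 1459.7 and 1136 in aPD1 tumors. CC079F1 had 1200.2 and 1126 against 1254 and 1328, and CC080F1 had 1942 and 1749 against 1720.1. The 5 highest tumors were all aPD1 tumors of R lines, and every tumor of CC036F1 and CC079F1 lay below every R tumor. CC080F1 lay within the R range and its tumors did not overlap those of CC079F1, the next line in order. The readthrough gene Gm20388 covers Irf8 on the same strand, so the split of reads between them is uncertain, and Gm20388 itself was at 1375 to 3157.

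Batf3 encodes the AP-1 family factor that pairs with Irf8 at cDC1 genes (chromosome 1, 191097847 to 191108945, plus strand). It was at 31.4 and 32.2 in isotype and 61.1 and 66.2 in aPD1 tumors of CC001F1, at 41.6 and 50.5 against 59.95 and 60.1 in CC002F1, and at 38.8 and 75.2 against 108 and 25.7 in CC075F1. The NR lines ran from 4.48 to 47.8, with the lowest values in aPD1 replicate 2 of CC079F1 (2 counts) and isotype replicate 2 of CC036F1 (7 counts). All 3 R line means, 61.8, 53.0 and 47.7, were above all 3 NR line means, 28.5, 27.1 and 20.2. The ranges of tumors overlapped between every line and the next in order.

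Of the 5 genes called higher in R tumors (below), stretches before a transcript start of Irf8, Batf3 and Xcr1 are shown. They are the 250 bases before a RefSeq transcript start on GRCm38.p6, read in the direction of the gene. The Batf3 stretch lies inside the gene interval given above, so it is not upstream of the whole gene. Windows from 250 bases before to 50 after the start were given for 8 of the 10 genes. Both strands were searched for the AP-1 motif TGANTCA, the gamma-activated site TTCNNNGAA and the interferon regulatory factor pair GAAANNGAA, in which N is any base. The latter pair can share the letters GAA. Of all 32851 such windows, 7.81% hold the first, 8.30% the second and 8.56% the third. Capitals mark a match.

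Irf8, chr8:120736108-120736357, plus strand: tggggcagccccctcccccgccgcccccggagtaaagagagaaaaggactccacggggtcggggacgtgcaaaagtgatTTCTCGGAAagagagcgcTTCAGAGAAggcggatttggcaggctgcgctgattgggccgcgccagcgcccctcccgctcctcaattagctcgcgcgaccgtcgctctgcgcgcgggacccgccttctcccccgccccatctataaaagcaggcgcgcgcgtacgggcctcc

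Batf3, chr1:191098164-191098413, plus strand: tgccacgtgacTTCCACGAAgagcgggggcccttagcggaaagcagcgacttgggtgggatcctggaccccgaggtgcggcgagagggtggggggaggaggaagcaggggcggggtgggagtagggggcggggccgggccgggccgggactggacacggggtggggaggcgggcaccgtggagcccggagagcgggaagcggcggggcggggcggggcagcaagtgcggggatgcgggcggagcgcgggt

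Xcr1, chr9:123862030-123862279, minus strand: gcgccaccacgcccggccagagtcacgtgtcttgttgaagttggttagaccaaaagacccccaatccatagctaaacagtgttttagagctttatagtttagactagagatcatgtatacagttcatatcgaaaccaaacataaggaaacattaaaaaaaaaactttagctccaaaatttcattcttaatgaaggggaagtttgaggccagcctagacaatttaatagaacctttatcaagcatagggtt

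The Irf8 stretch held the gamma-activated letters at positions -171 and -153 from the start, Batf3 held them at -239, and the Xcr1 stretch held none of the 3 motifs. The windows of Wdfy4, Flt3, Tlr3 and Xcl1 and a second Irf8 window, not shown, also held none. The Clec9a window held the interferon regulatory factor pair at -2, although Clec9a was not called between classes. No window was given for Cadm1 or Itgae. A match is a match of letters, and no binding was measured.

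Xcr1, the chemokine receptor that marks cDC1s (chromosome 9, 123852315 to 123862029, minus strand), varied most of the 10. In CC001F1 it was at 85.0 and 55.8 in isotype and 117 and 458 in aPD1 tumors. In CC075F1 it was at 41.7 and 97.5 against 181 and 61.6, and in CC002F1 at 14.9 and 30.5 against 43.1 and 77.5. NR tumors had 28.3 and 28.3 against 31.8 and 14.5 in CC036F1, 24.8 and 7.93 against 28.0 and 15.7 in CC079F1, and 66.4 and 30.7 against 85.2 in CC080F1. The order of the line means was CC001F1 (179), CC075F1 (95.5), CC080F1 (60.8), CC002F1 (41.5), CC036F1 (25.7) and CC079F1 (19.1), with overlap between all neighbors. An NR line, CC080F1, thus stood above an R line, CC002F1, and the top of the order rested on 1 tumor at 458.

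Xcl1, the ligand (chromosome 1, 164931644 to 164935527, minus strand), did not follow its receptor. Its lowest, median and highest levels were 41.1, 55.2 and 96.6 in R isotype tumors, 33.4, 70.7 and 89.6 in R aPD1 tumors, and 72.5, 96.1 and 192 in NR isotype tumors. The 5 NR aPD1 tumors had 38.7 and 33.3 (CC036F1), 72.0 and 76.2 (CC079F1) and 108 (CC080F1). The NR isotype tumors were the highest group and overlapped each of the others. Gm20743, an opposite-strand transcript across Xcl1, had 15.4 normalized counts or fewer in every tumor.

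Clec9a, the lectin by which cDC1s sense dead cells (chromosome 6, 129408862 to 129424763, plus strand), was nearly level. It was at 550.2 to 579 in the 6 R isotype tumors (568 ± 11, mean ± SD) and at 438 to 665 in the 6 R aPD1 tumors (568 ± 80.0). It was at 341 to 658 in the 6 NR isotype tumors (516 ± 118) and at 351 to 549.6 in the 5 NR aPD1 tumors (487 ± 78.4). The highest line mean was that of an NR line, CC080F1, at 579, and every tumor of CC036F1, with a mean of 411, lay below every tumor of CC080F1. Clec9a overlaps Clec1b and Gm43914 on the same strand, and Clec1b itself was at 4.29 to 105 normalized counts.

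Tlr3, which senses double-stranded RNA in the endosomes of cDC1s (chromosome 8, 45395665 to 45411080, minus strand), was also level. Its group means were 1568 ± 110.3 in R isotype, 1739 ± 233 in R aPD1, 1708 ± 179.7 in NR isotype and 1661 ± 399 in NR aPD1 tumors. Wdfy4 encodes a protein that cross-presentation of cell-associated antigen requires (chromosome 14, 32959547 to 33185508, minus strand). It was at 1440.1 to 2099 in R isotype tumors with a median of 1596, and at 1653 to 2697 with a median of 2115 in R aPD1 tumors. In NR tumors it was at 1300.5 to 1759 with a median of 1439 without aPD1 and at 1326 to 1935 with a median of 1552 with it. The 3 highest tumors were R aPD1 tumors, and each pair of groups overlapped.

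Cadm1 encodes the adhesion molecule by which cDC1s bind Crtam on T and NK cells (chromosome 9, 47530173 to 47857637, plus strand). It was at 1152 and 1346 in isotype and 1342 and 2266 in aPD1 tumors of CC001F1, at 1373 and 1554 against 1974 and 2008 in CC002F1, and at 1307 and 1689 against 2422 and 1633 in CC075F1. In NR lines it was at 517 and 355 against 823 and 401 in CC036F1, at 741 and 934 against 769 and 788 in CC079F1, and at 1077 and 904 against 568 in CC080F1. Every R tumor was above every NR tumor, both among isotype and among aPD1 tumors. No other gene of the set separated the tumors in this way. Of all 26342 genes with at least 5 counts, 0.82% did so in one direction or the other among isotype tumors and 2.62% among aPD1 tumors.

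Itgae, the alpha E integrin chain of cDC1s and resident T cells (chromosome 11, 73090583 to 73147446, plus strand), ran from 28.2 to 103 in R isotype, 49.1 to 81.2 in R aPD1, 50.6 to 93.2 in NR isotype and 34.3 to 169 in NR aPD1 tumors. Haspin lies within it on the other strand at 333 to 543 normalized counts, several times the level of Itgae, and whether reads were counted by strand is not given in the sources used here. Flt3, the cytokine receptor of dendritic cell progenitors (chromosome 5, 147330741 to 147400489, minus strand), ran from 14.3 to 59.4 in R isotype, 31.1 to 59.5 in R aPD1, 10.9 to 52.2 in NR isotype and 21.8 to 115 in NR aPD1 tumors. The highest value of both genes was in the CC080F1 aPD1 tumor, 1 of the 3 with Glycam1.

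**Figure D1:**
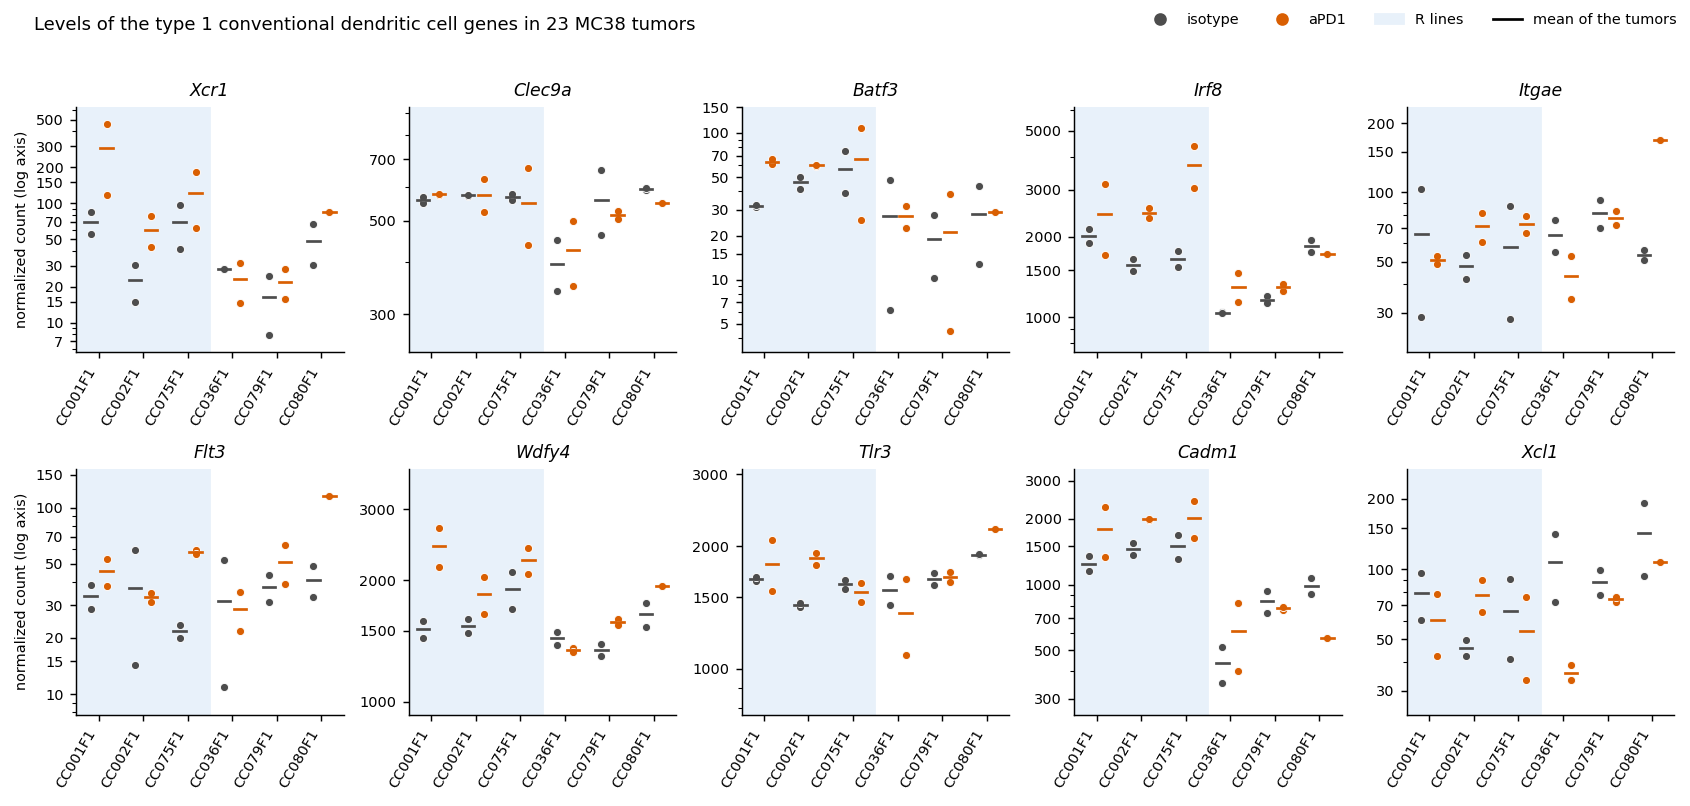
Normalized counts of the 10 genes by host line, on log axes that differ between panels, where each point is a tumor, bars are means of the 1 or 2 tumors of a group, and the shaded lines are R lines. Cadm1 shows every R tumor above every NR tumor of the same antibody, Xcr1 a single CC001F1 tumor at 458, and Clec9a a narrow band from 341 to 665.

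R and NR tumors were first compared over both antibodies, to ask which of these genes go with the class of the host. Xcr1, Batf3, Irf8, Wdfy4 and Cadm1 were higher in R tumors and none of the 10 was lower. Cadm1 was 1.199 ± 0.18 higher on the log2 scale (DESeq2 adjusted p = 7.85e-09), a fold of 2.30. Irf8 was 0.70 ± 0.14 higher (adjusted p = 6.76e-05), Batf3 1.08 ± 0.30 (adjusted p = 0.00565), Xcr1 1.44 ± 0.40 (adjusted p = 0.00546) and Wdfy4 0.32 ± 0.09 (adjusted p = 0.005). Over all genes with an adjusted p, 14.4% were called and 7.66% were called higher in R tumors, beside 5 of the 10 genes here. Since the 10 were chosen with earlier results of these data known, no excess is read from this. edgeR called the same 5, beside 6.7% of all genes. The median difference of the 10 was 0.25, against -0.01 over all genes fitted. Clec9a differed by 0.18 ± 0.10 (adjusted p = 0.209), with a 95% interval from -0.01 to 0.37, which leaves out a difference of the size seen for Irf8. Tlr3 differed by -0.03 ± 0.09, Itgae by -0.29 ± 0.24, Flt3 by -0.28 ± 0.28 and Xcl1 by -0.43 ± 0.24, and none of these passed the threshold.

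With tumors of a line taken as replicates of the class, these p-values count 12 and 11 tumors and not 3 and 3 lines. When counts were summed per line and antibody, Batf3, Cadm1, Irf8 and Wdfy4 kept their calls and Xcr1 did not (DESeq2 adjusted p = 0.126). Each line entered that fit with both antibodies, so the fit does not take the line as its unit. Xcr1 was also not called in the 17 deep libraries alone (adjusted p = 0.103, with 9.83% of all genes called). Nor was it called by limma voom with line as a random effect (adjusted p = 0.0825). The shares of all genes called in the line sums and in voom are not given here, so the calls kept there are not set against them. Line means of the R and NR lines were apart for Batf3, Irf8 and Cadm1, all with R above, where 20.4% of all genes had line means apart by class and 10.6% had every R line mean above every NR one.

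Before any aPD1 effect, in isotype tumors, Cadm1 alone was called. It was 0.90 ± 0.25 higher in R tumors (DESeq2 adjusted p = 0.0126), 1 of 10 genes beside 5.53% of all genes called and 2.29% called higher. edgeR did not call it (adjusted p = 0.075, with 0.122% of all genes called), nor did the fits of the deep libraries (adjusted p = 0.239, with 0.222% called) or of line sums (adjusted p = 0.263). Xcl1 differed by -0.82 ± 0.29 (adjusted p = 0.0716). It passed with the tumors blocked by replicate number (adjusted p = 0.0424), or without isotype replicate 2 of CC001F1 (adjusted p = 0.0405) or of CC075F1 (adjusted p = 0.019). Batf3 (0.87 ± 0.46), Xcr1 (0.77 ± 0.47), Wdfy4 (0.17 ± 0.10), Clec9a (0.14 ± 0.13), Tlr3 (-0.12 ± 0.08), Itgae (-0.25 ± 0.34) and Flt3 (-0.29 ± 0.41) were not called. Irf8 differed by 0.37 ± 0.15 (adjusted p = 0.137) and passed only without a tumor of CC080F1 (adjusted p = 0.0058 and 0.0497 without isotype replicates 1 and 2).

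In aPD1 tumors 5 of the 10 were higher in R, beside 7.93% of all genes called and 5.94% called higher. Cadm1 was 1.53 ± 0.19 higher (DESeq2 adjusted p = 5.25e-13), Irf8 1.05 ± 0.19 (adjusted p = 4.67e-06), Wdfy4 0.48 ± 0.13 (adjusted p = 0.00658), Batf3 1.30 ± 0.39 (adjusted p = 0.0154) and Xcr1 2.15 ± 0.69 (adjusted p = 0.0295), the last a fold of 4.44. Xcr1 lost its call without any 1 of 6 tumors, and its difference fell to 1.45 without aPD1 replicate 2 of CC001F1 and rose to 2.79 without the CC080F1 tumor. Batf3 lost its call without aPD1 replicate 1 of CC075F1 (adjusted p = 0.0721). edgeR called only Cadm1 (adjusted p = 0.00251) and Irf8 (adjusted p = 0.0128) here, beside 2.25% of all genes. Clec9a, at 0.22 ± 0.14, Tlr3, at 0.07 ± 0.15, Xcl1, at 0.00 ± 0.35, Itgae, at -0.33 ± 0.35, and Flt3, at -0.27 ± 0.40, were not called.

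The antibody was then compared within lines, to ask which genes moved 48 h after aPD1. In R lines Xcr1 rose by 1.41 ± 0.39 (DESeq2 adjusted p = 0.0119), Irf8 by 0.69 ± 0.16 (adjusted p = 0.00295), Cadm1 by 0.46 ± 0.13 (adjusted p = 0.0158) and Wdfy4 by 0.38 ± 0.11 (adjusted p = 0.0125). These were 4 of 10 genes, beside 5.26% of all genes called and 4.85% called higher. Each of the 4 had a higher mean with aPD1 in 3 of 3 R lines, as did Flt3, which was not called. In NR lines the mean was higher in 2 of 3 for Xcr1, Irf8 and Wdfy4, 1 of 3 for Cadm1 and 3 of 3 for Flt3. The 4 were called from these same tumors and no share of all genes is given, so the directions add no support. Among R lines the size differed: Xcr1 differed most in CC001F1 (1.74) and least in CC075F1 (0.72), and Irf8 most in CC075F1 (1.15) and least in CC001F1 (0.21), as differences of mean log2 levels over 2 tumors each. Batf3, at 0.54 ± 0.31, Flt3, at 0.55 ± 0.37, Itgae, at 0.20 ± 0.35, Tlr3, at 0.14 ± 0.09, and Xcl1, at 0.05 ± 0.32, were not called, and Clec9a (-0.02 ± 0.10) had a 95% interval from -0.22 to 0.19.

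The calls of the antibody in R lines depended on the test and on single tumors. edgeR called none of the 10 and none of 24858 genes, although 2621 genes, among them the same 4, were under an unadjusted p of 0.05. Without aPD1 replicate 2 of CC001F1 only Irf8 was called, with Xcr1 at 1.00 (adjusted p = 0.124), Cadm1 at 0.35 (adjusted p = 0.0882) and Wdfy4 at 0.31 (adjusted p = 0.0578). Without isotype replicate 1 of CC075F1 the same single gene was called. Xcr1 also lost its call without aPD1 replicate 1 of CC075F1 (adjusted p = 0.0604). Cadm1 lost it without each of 5 tumors and Wdfy4 without each of 4, and Irf8 kept it without each of the 12. Without isotype replicate 1 of CC002F1, the R tumor with Glycam1, Flt3 was called at 0.99 ± 0.29 (adjusted p = 0.023).

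In NR lines none of the 10 was called, beside 0.0448% of all genes, and edgeR called none either, beside 0.0204%. In both tools 1 gene of the set was under an unadjusted p of 0.05, Xcl1, at -0.76 ± 0.31 (adjusted p = 0.726), and its mean was lower with aPD1 in 3 of 3 NR lines. Shares of all genes under that p, or lower in all 3 NR lines, are not given here, so no result is read from either. Xcr1 differed by 0.25 ± 0.43, Irf8 by 0.15 ± 0.10, Wdfy4 by 0.11 ± 0.08 and Cadm1 by -0.04 ± 0.27. Flt3 differed by 0.49 ± 0.42, Itgae by 0.23 ± 0.35, Batf3 by 0.12 ± 0.61, Clec9a by -0.02 ± 0.14 and Tlr3 by -0.01 ± 0.11. These intervals are wide for Xcr1, from -0.60 to 1.10, and narrow for Irf8, from -0.04 to 0.34. With all 6 lines in the fit and a term for line, Irf8 rose by 0.45 ± 0.12 (DESeq2 adjusted p = 0.0151) and Wdfy4 by 0.26 ± 0.07 (adjusted p = 0.0276), beside 2.79% of all genes called, and neither was called in the deep libraries alone (1.45% of all genes called) or by edgeR (0.0569%). The other 8 had adjusted p of 0.0949 (Xcr1) or more.

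Whether the antibody effect differed between classes was tested as an interaction. None of the 10 was called in DESeq2 or edgeR, where 0.0342% of all genes were called in DESeq2. At an unadjusted p under 0.05 there were 3 in DESeq2, namely Irf8 (difference of effects 0.55 ± 0.21, adjusted p = 0.5), Wdfy4 (0.28 ± 0.14, adjusted p = 0.729) and Xcr1 (1.17 ± 0.59, adjusted p = 0.747), and 2 in edgeR. The other 7 had adjusted p of 0.762 (Cadm1) or more. The share of all genes under an unadjusted p of 0.05 in these fits is not given here, so the 3 and 2 are not set against it. Irf8 was called without aPD1 replicate 1 of CC001F1 (adjusted p = 0.00352). The rise of the 4 genes in R lines was therefore not shown to differ from that in NR lines.

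**Figure D2:**
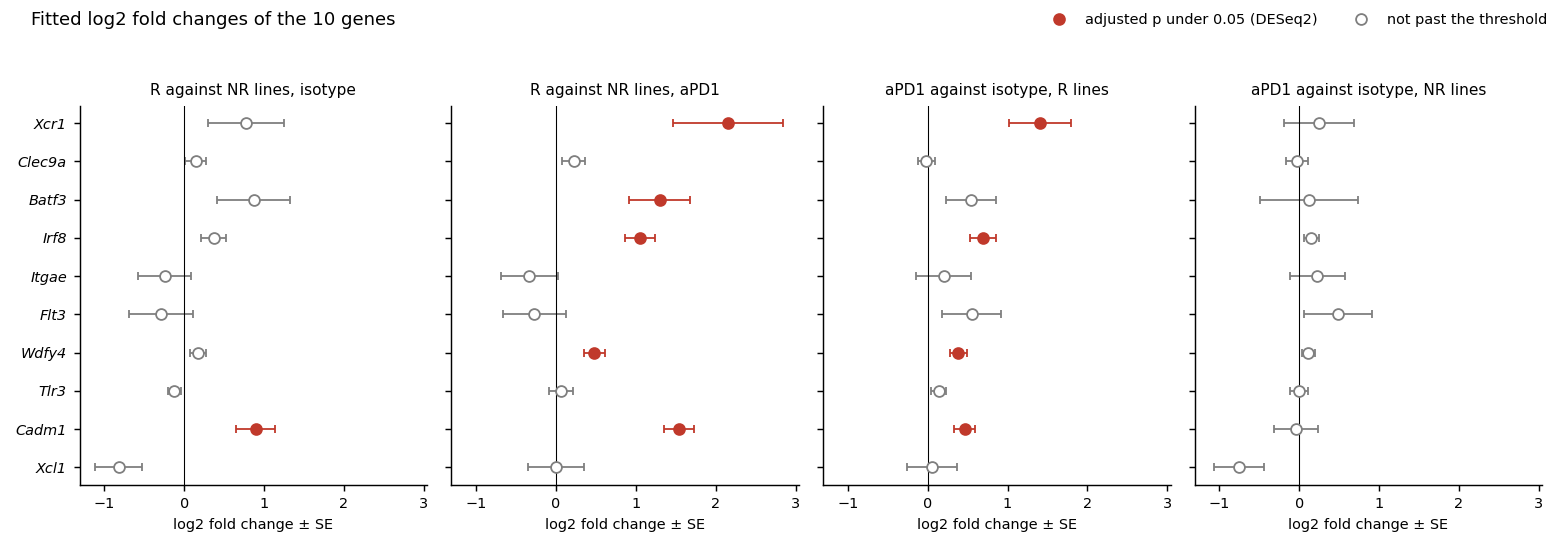
Fitted log2 fold changes with their SE for the 10 genes in 4 comparisons. Filled points passed a DESeq2 adjusted p under 0.05: Cadm1 in the isotype tumors, 5 genes in the aPD1 tumors, 4 genes for the antibody in R lines and none for it in NR lines.

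Lines of the same class were compared with each other by a likelihood ratio test of line. Within R lines Xcr1 was called (DESeq2 adjusted p = 0.0313), 1 of 10 genes beside 1.05% of all genes, and the other 9 had adjusted p of 0.909 (Wdfy4) or more. Its call was lost without each of 5 tumors, among them aPD1 replicate 2 of CC001F1 (adjusted p = 0.229) and isotype replicate 1 of CC002F1, the R tumor with Glycam1 (adjusted p = 0.243), and in edgeR (adjusted p = 0.451, with 0.35% of all genes called). Within NR lines Irf8 (adjusted p = 1.4e-06), Wdfy4 (adjusted p = 0.0284), Xcr1 (adjusted p = 0.0357) and Tlr3 (adjusted p = 0.0451) were called, beside 9.46% of all genes, with Clec9a at an adjusted p of 0.0818 and the other 5 at 0.282 (Xcl1) or more. For each of these 4 the highest NR line mean was that of CC080F1, at 1804 for Irf8, 1743 for Wdfy4, 60.8 for Xcr1 and 2004 for Tlr3. Irf8 kept its call without each of the 11 tumors, and alone of the 10 in edgeR, beside 4.42% of all genes. The other 3 lost theirs without the CC080F1 aPD1 tumor (adjusted p = 0.406 for Wdfy4, 0.527 for Xcr1 and 0.393 for Tlr3) and without both NR tumors with Glycam1. Wdfy4 and Tlr3 lost theirs without each of 8 tumors and Xcr1 without each of 7, so these 3 calls sat at the threshold. Cadm1 was called within NR lines without that CC080F1 tumor (adjusted p = 0.00816) or without aPD1 replicate 1 of CC036F1 (adjusted p = 9.44e-06). Without 1 tumor of CC036F1, Xcl1 (adjusted p = 0.0194, isotype replicate 1), Flt3 (adjusted p = 0.0272, isotype replicate 2) or Clec9a (adjusted p = 0.0117, aPD1 replicate 1) was also called.

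Ptprc, the pan-leukocyte marker CD45, was itself higher in R tumors, at 5371 to 6302 normalized counts against 2447 to 6278 in isotype tumors and at 5651 to 13888 against 3099 to 5976 in aPD1 tumors. The level of each gene was therefore also described as the log2 of its counts over those of Ptprc in the same tumor. Relative to Ptprc, Irf8 was -1.77 ± 0.16 in R and -1.59 ± 0.24 in NR isotype tumors, and -1.64 ± 0.19 and -1.65 ± 0.19 in aPD1 tumors (mean ± SD, n = 6, 6, 6 and 5). The ranges of R and NR tumors overlapped for Irf8, whose level per Ptprc was about the same in the 2 classes. Cadm1 remained 0.39 higher in R isotype and 0.55 higher in R aPD1 tumors on this scale, Batf3 0.58 and 0.52 higher, and Xcr1 0.21 and 1.00 higher, each with overlapping ranges. The other 6 lay lower in R tumors per Ptprc. Among them was Wdfy4, which had been called higher in R tumors by its own level, with log2 differences of -0.43 in isotype and -0.52 in aPD1 tumors. Clec9a differed by -0.42 and -0.77, Xcl1 by -1.41 and -0.98, Itgae by -0.96 and -1.16 and Flt3 by -0.84 and -1.08, all with overlapping ranges. Tlr3 differed by -0.71 and -0.91, with R tumors below NR tumors and no overlap. Its own level overlapped between the classes, and Ptprc was higher in R tumors. The share of all genes apart on this scale was not computed, so nothing particular to Tlr3 is read from this. No test was run on these ratios, which mix a change of the gene with a change of Ptprc.

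**Figure D3:**
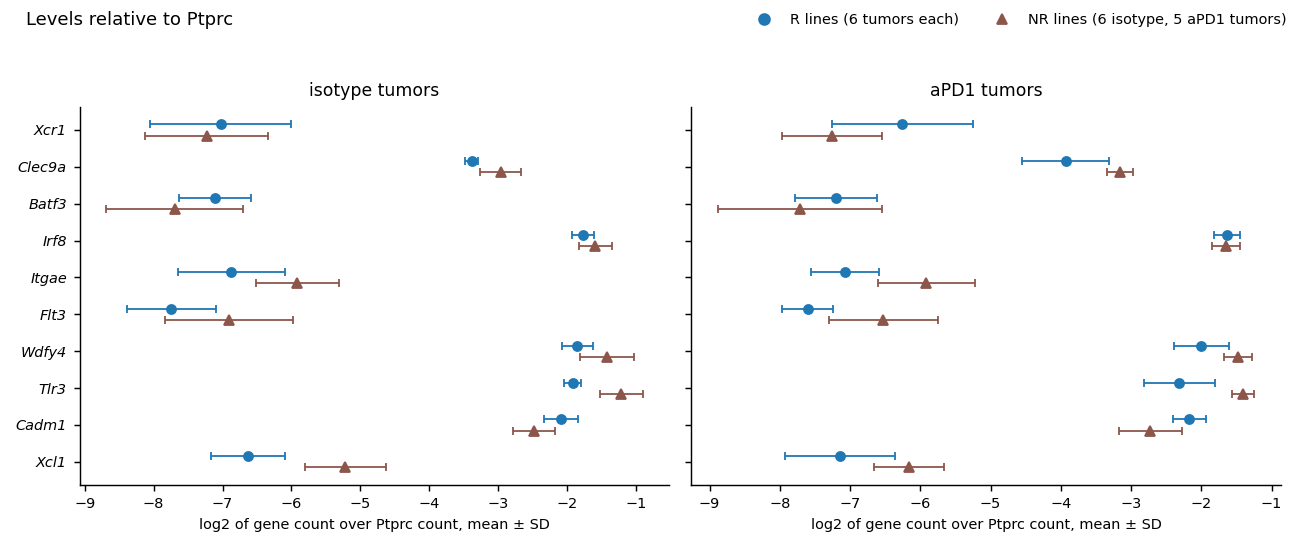
Log2 of the counts of each gene over those of Ptprc in the same tumor, as mean and SD over the tumors of a class, for isotype and aPD1 tumors. Irf8 sits at about the same ratio in R and NR tumors, Xcr1, Batf3 and Cadm1 sit higher in R tumors, and Clec9a, Itgae, Flt3, Wdfy4, Tlr3 and Xcl1 sit lower.

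Xcr1 and Clec9a are both used to mark cDC1s, and their levels were compared across tumors. Within the 12 R tumors Pearson's r of their log2 levels was -0.20 (permutation p = 0.523, adjusted p = 0.743 over the 9 relations run) and Spearman's rho 0.08 (permutation p = 0.801, adjusted p = 0.801 over 6). Within the 11 NR tumors r was 0.12 (permutation p = 0.739, adjusted p = 0.832) and rho 0.15 (permutation p = 0.674, adjusted p = 0.801). The 2 tumors of a group were also compared with each other over the 11 groups that had 2, with an exact test that swaps them, and r of these differences was -0.20 (exact p = 0.578, adjusted p = 0.743). No relation between them was shown, and r moved to -0.41 in R and 0.54 in NR tumors without the 2 tumors farthest from the median of Xcr1. No relation of Xcr1 with its ligand Xcl1 was shown either, with r of 0.19 in R (permutation p = 0.554, adjusted p = 0.743) and 0.24 in NR tumors (permutation p = 0.477, adjusted p = 0.743). Spearman's rho was 0.27 and 0.28 (permutation p = 0.406 and 0.402, adjusted p = 0.6095 for both), and r became 0.47 and 0.37 without the 2 farthest tumors. Between the 2 tumors of a group r was 0.01 (exact p = 0.975, adjusted p = 0.975).

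The values of r were larger for Xcr1 with Irf8 but did not pass the correction. Within R tumors r was 0.60 (permutation p = 0.038, adjusted p = 0.171) and within NR tumors 0.68 (permutation p = 0.0216, adjusted p = 0.171), and r was 0.51 and 0.62 without the 2 farthest tumors. Between the 2 tumors of a group r was 0.68 (exact p = 0.104, adjusted p = 0.311), and the tumor with more Xcr1 also had more Irf8 in 6 of 11 groups. Ptprc and depth vary between the same tumors, and their part was not tested.

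**Figure D4:**
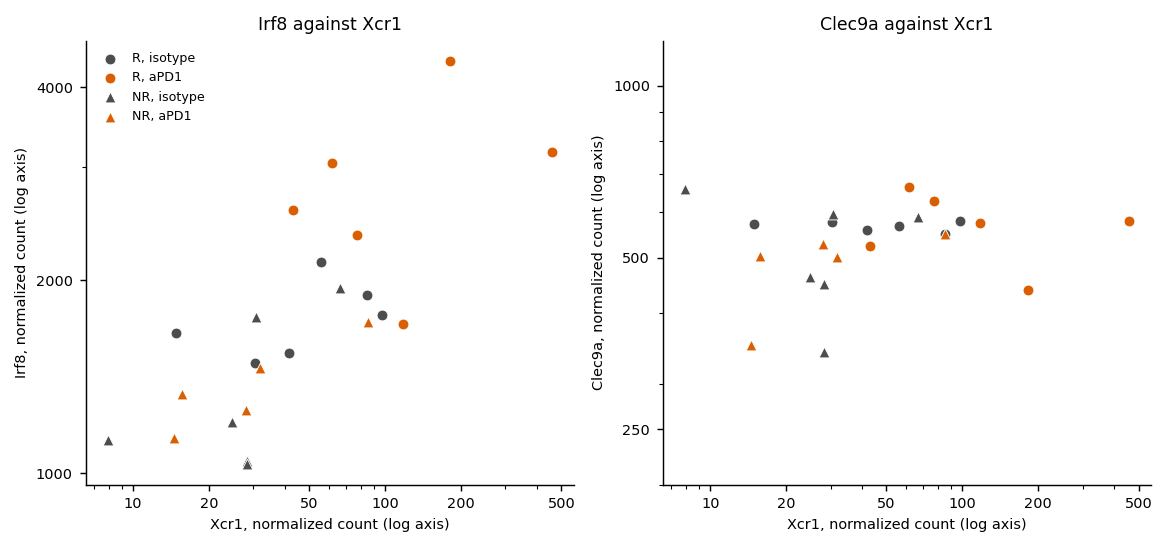
Irf8 and Clec9a against Xcr1 in the 23 tumors, as normalized counts on log axes, with circles for R and triangles for NR tumors. Irf8 is higher where Xcr1 is higher in the pooled tumors, which differ in class and antibody, and Clec9a stays between 341 and 665 over the whole range of Xcr1.

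The genes whose levels were most like those of Xcr1 over the 23 tumors, among 14879 with a mean of at least 20 normalized counts, were Spn (r = 0.89), Scly (0.87), Zc3h12d (0.86), Tmem229b (0.86) and Fyb (0.86). Spn encodes the leukocyte surface mucin CD43, and Fyb an adaptor of T cell and myeloid signaling. On deviations from the group means these were at 0.85, 0.92, 0.71, 0.58 and 0.76. Among the genes of the set, Wdfy4 was nearest to Xcr1 (r = 0.82), then Irf8 (0.75), Cadm1 (0.58) and Batf3 (0.56), and Clec9a was at 0.21. For Clec9a the nearest genes were Kbtbd6 (0.80), Ntpcr (0.79), Ldb2 (0.77), Oxsm (0.77) and Sgce (0.76), and its nearest partner in the set was Cadm1 (0.62). These values describe tumors that share class, antibody and depth.

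Other genes of the cDC1 program were described from a list of 10: Naaa, Ppt1, Snx22, Clnk, Gcsam, Gpr33, Rab7b, Tlr11, Ifi205 and Btla. Over all tumors 2 were higher in R and none lower, Rab7b by 0.66 ± 0.15 (DESeq2 adjusted p = 0.000585) and Ppt1 by 0.32 ± 0.08 (adjusted p = 0.00102), both lysosomal proteins, where 14.4% of all genes were called and 7.66% called higher. None was called in isotype tumors. With aPD1 in R lines 3 rose, Ifi205 by 1.36 ± 0.33 (adjusted p = 0.00371), Rab7b by 0.69 ± 0.17 (adjusted p = 0.00469) and Ppt1 by 0.28 ± 0.09 (adjusted p = 0.0312), beside 5.26% of all genes called, and in NR lines none did. The list's median change with aPD1 was 0.45 in R lines and 0.12 in NR lines, beside -0.01 and 0.01 over all genes fitted. Snx22, Clnk, Gcsam, Gpr33, Tlr11 and Btla were called in none of these comparisons, and Gpr33 was at 0 in 6 tumors.

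Of 8 transcription factors of dendritic cell development, Irf4, which serves type 2 conventional dendritic cells (cDC2s), was higher in R tumors by 0.86 ± 0.24 (DESeq2 adjusted p = 0.00541), and Nfil3, Bcl6, Batf, Relb, Zeb2, Id2 and Zbtb46 were not called. This 1 of 8 is no larger a share than the 14.4% of all genes called. Zbtb46, the factor shared by conventional dendritic cells, differed by -0.17 ± 0.07 (adjusted p = 0.0895) and was at 474 to 804 normalized counts in all tumors. With aPD1 in R lines Id2, a factor needed by cDC1s, rose by 0.76 ± 0.15 (adjusted p = 0.000289) and Zeb2, which opposes the cDC1 fate, by 0.24 ± 0.07 (adjusted p = 0.0253), 2 of 8 beside 5.26% of all genes. In NR lines none of the 8 was called.

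Ligands, partners and output signals of cDC1s formed a list of 12, of which 11 were analysed here and Flt3l, the ligand of Flt3, was not. Itgb7, the beta chain that pairs with Itgae, was higher in R tumors by 1.26 ± 0.19 (DESeq2 adjusted p = 4.34e-08), Cxcl9, a chemokine for activated T cells, by 1.56 ± 0.29 (adjusted p = 8.88e-06) and Cd40 by 0.85 ± 0.19 (adjusted p = 0.000347). These were 3 of 11, beside 14.4% of all genes called, and none of the 11 was lower. With aPD1 in R lines 5 rose, of which Cd40 (0.91 ± 0.21, adjusted p = 0.00203), Cxcl10 (0.67 ± 0.16, adjusted p = 0.00389), Cxcl9 (0.94 ± 0.26, adjusted p = 0.013) and Itgb7 (1.07 ± 0.34, adjusted p = 0.0337) had the smallest adjusted p, 5 of 11 beside 5.26% of all genes. In NR lines none of the 11 was called. Il12b, the cytokine subunit by which cDC1s drive T cells, was at 56.7 normalized counts or fewer and was called neither between classes nor with aPD1 in R lines. Crtam, the receptor of Cadm1, was at 51.5 or fewer, and was at 0 in 1 tumor, and was not called in them either.

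Markers of other cells were read against the same 14.4% of all genes called between classes. T and NK cell markers were higher in R tumors for 6 of 7 genes, and their summed level ran from 732.5 to 1745 in R isotype, 294 to 1388 in NR isotype, 884 to 3763 in R aPD1 and 477 to 1004 in NR aPD1 tumors. Monocyte and macrophage markers were higher for 2 of 4, Adgre1 and Csf1r. Of 6 cDC2 markers, Sirpa and Itgam, which macrophages also carry, were higher in R tumors and Mgl2 was lower. Of 5 plasmacytoid markers Tcf4 was lower, with Klk1 at 0 in 6 tumors and Siglech in 1, and of 5 migratory dendritic cell markers Cacnb3 was lower, each 1 of 5 and near the share of all genes. None of 3 fibroblast and none of 4 tumor cell markers was called. B cell markers were not called over all tumors, and all 4 were lower in R among aPD1 tumors, where 2 of the 5 NR tumors were those with Glycam1. With those 3 tumors left out, Xcr1, Batf3, Irf8, Wdfy4 and Cadm1 kept their calls over all tumors and in aPD1 tumors. The share of all genes called in those fits is not given here, so these calls are not set against it. The part of T cell, NK cell and macrophage transcripts in the differences of Irf8, Wdfy4 and Cadm1 was not tested.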

How the data were processed

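RNA of 23 whole tumors was sequenced as poly(A) libraries with paired reads. Per the study's methods the authors aligned reads with bowtie 1.2.3 to transcriptomes that carry the founder strains' variants, and deposited expected counts per gene, summed over alleles, named by GENCODE release 23. Whether counting used strand is not given in the sources used here. Of 26869 gene identifiers, 26681 were named through GENCODE release 21 (GRCm38), and the 188 others held 0.0993% of the counts. Of the deposited expected counts 16.9% were not whole and were rounded, which moved no library total by more than 66.6.

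Genes with at least 5 counts over a fit were tested with the DESeq2 1.42.0 Wald test (R 4.3.3), and lines within a class with its likelihood ratio test. Alternatives were edgeR 4.0.16 quasi-likelihood, limma 3.58.1 voom with line as random effect, other filters and size factors, and the 17 deep libraries alone. Others were depth as a term, sums per line and antibody, the replicate number as a block, and each tumor left out. Leaving out the 3 tumors with Glycam1 was chosen after seeing the data. Correlations and ratios used log2 values, with 100000 permutations within a class (smallest p 1e-05) and exact swaps of the 2 tumors of a group, chosen after seeing the data. The fits were also run on simulated counts, with the same dispersion for all genes. In the class comparison these counts held no difference between lines of a class. They thus cannot test how such differences bear on its calls. Precision is set by the counts per library, given with the values.

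The rule for naming took all 10 genes, with those not called given in brief or by their smallest adjusted p, and of other lists at most the 4 called genes with the smallest adjusted p, besides genes a limit rests on. The members and lists were chosen with earlier results of these data known. Of 82 listed genes 81 were analysed.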

Additional observations from a re-analysis of the deposited data

Results flagged for a closer look

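Of 40 groups of 5 or 6 tumors examined for a tumor far from the others of its group, 3 held one, where chance gives about 1 in 20. Xcr1 in NR aPD1 tumors was highest in replicate 1 of CC080F1, at 85.2 normalized counts, with the other 4 tumors at 14.5 to 31.8. Xcr1 in R aPD1 tumors was highest in replicate 2 of CC001F1, at 458, with the other 5 at 43.1 to 181. Clec9a in NR aPD1 tumors was lowest in replicate 2 of CC036F1, at 351, with the other 4 at 500.3 to 549.6. These groups join lines of unlike genotype, so a line that differs can stand apart in this way too.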

How the results depend on the processing

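Counts are of the 10 genes called. Shares of all genes called are given above for the main fits, most edgeR fits and some fits of the deep libraries. For the other settings, and for counts at an unadjusted p, no share is given here, so those counts are not set against all genes. Over all tumors 5 were called between classes and 5 to 5 with any 1 of 23 tumors left out. The count was 4, without Xcr1, in deep libraries, in sums per line and antibody and in voom. In isotype tumors the count of 1 became 0 in edgeR, in deep libraries, in sums per line and in voom, 2 with the replicate block, and 1 to 2 without single tumors. In edgeR 3 of the 10 had an unadjusted p under 0.05 there. In aPD1 tumors the count of 5 became 2 in edgeR, 1 in voom and 3 to 5 without single tumors. For the antibody in R lines the count of 4 became 0 in edgeR and 1 to 4 without single tumors, and in NR lines it was 0 to 0. Over all lines the count of 2 became 0 in edgeR (3 at an unadjusted p under 0.05) and in deep libraries, 1 (Irf8) without the tumors with Glycam1, and 0 to 3 without single tumors. The antibody by class interaction gave 0 to 1. Lines within R gave 1, with 0 in edgeR and without the Glycam1 tumor and 0 to 1 without single tumors. Lines within NR gave 4, with 1 in edgeR, 1 with the replicate block, 1 in deep libraries, 2 with depth as a term, 2 without the Glycam1 tumors and 1 to 5 without single tumors. The cause of these changes was not tested. The relation of Xcr1 with Irf8 between tumors of a group, r = 0.68, had an adjusted p of 0.00189 when 22 deviations were permuted as if independent and of 0.311 with exact swaps within the 11 pairs (exact p = 0.104), added after seeing the data because the 2 deviations of a pair mirror each other. Tumors of the same replicate number did not deviate together (55 pairs of groups, r from -0.31 to 0.25, 5 over 0.1), and the block moved no other count by over 1.5 times. No single-gene difference reversed its direction while called. Xcr1 and Batf3, at 2 to 560 counts per tumor, are the genes most limited by depth, with Flt3 at 5 to 123.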
